A study of Homo sapiens with 12 samples.

Results

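VIM and 7 transcription factors of epithelial-to-mesenchymal transition (EMT), ZEB1, ZEB2, SNAI1, SNAI2, TWIST1, TWIST2 and PRRX1, were followed by single-cell RNA sequencing in 3 cell lines of head and neck squamous carcinoma (HNSCC). The 8 genes were taken by name from the 33514 gene symbols of the count tables, and each of the 8 had at least 1 unique molecular identifier (UMI, a tag that marks 1 captured transcript). After the filter on low counts, 7 of the 8 remained among 17897 genes tested. PRRX1 did not pass, and its values are given without a test. SCC1 (UM-SCC-1), SCC6 (UM-SCC-6) and SCC25 cells received cetuximab, the therapeutic antibody against EGFR, at 100 nM daily for 5 days. Control cells received phosphate-buffered saline (PBS). Each of the 6 groups held 2 samples, and 23914 cells were deposited in all, 961 to 2854 per sample. Each line is 1 culture line, so that a difference between lines is a difference between these cultures.

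VIM encodes vimentin, the intermediate filament protein of mesenchymal cells, and its appearance in carcinoma cells is a classical sign of EMT. SNAI1 (Snail), SNAI2 (Slug), ZEB1 and ZEB2 are zinc finger repressors that bind E-box sequences and silence epithelial genes such as CDH1, which encodes E-cadherin. TWIST1, TWIST2 and PRRX1 are a pair of basic helix-loop-helix factors and a homeobox factor that act in embryonic mesenchyme and can start the same programme. SNAI2 is also a normal factor of basal keratinocytes, where it accompanies the undifferentiated state, and the microRNAs of the miR-200 family hold ZEB1 and ZEB2 down in epithelial cells.

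In the GRCh38.p14 assembly of RefSeq, VIM spans bases 17228241 to 17237593 and ZEB1 bases 31318417 to 31529804 of chromosome 10. ZEB2 spans bases 144384081 to 144520119 and TWIST2 bases 238848085 to 238910534 of chromosome 2. The RefSeq promoter table held 5 of the 8 genes, VIM, TWIST2, ZEB1, ZEB2 and PRRX1. The 250 bases before the annotated start are shown for VIM and TWIST2, the members whose levels differed most between the lines, with every CG dinucleotide, the pair of bases that can be methylated, in capitals. Both are on the plus strand, at chr10:17227991-17228240 and chr2:238847835-238848084.
VIM: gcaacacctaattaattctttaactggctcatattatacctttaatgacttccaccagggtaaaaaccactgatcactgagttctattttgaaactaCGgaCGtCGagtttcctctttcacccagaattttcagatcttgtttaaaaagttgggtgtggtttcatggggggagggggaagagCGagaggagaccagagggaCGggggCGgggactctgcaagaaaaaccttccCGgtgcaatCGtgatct
TWIST2: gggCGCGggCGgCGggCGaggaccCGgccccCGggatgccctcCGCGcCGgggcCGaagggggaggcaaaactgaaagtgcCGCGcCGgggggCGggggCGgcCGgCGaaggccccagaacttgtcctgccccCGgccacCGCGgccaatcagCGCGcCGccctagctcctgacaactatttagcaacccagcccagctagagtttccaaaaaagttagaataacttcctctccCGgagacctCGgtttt
The VIM stretch held 8 CG dinucleotides with a GC content of 46%, and the TWIST2 stretch 26 with a GC content of 68.4%. The median of all 35093 promoters of the same length was 11 CG dinucleotides and 58% GC. Neither stretch held the E-box CACCTG, the form that ZEB and SNAI factors bind, or any CANNTG, on either strand. Of all promoters, 17.5% held CACCTG and 61.8% held CANNTG, which includes CACCTG. Methylation and binding were not measured in these data.

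A pair of mature microRNAs made from the transcript MIR200CHG, which is used later as a member of the epithelial gene lists, are shown because their seeds (bases 2 to 8, in capitals) define the family that represses ZEB1 and ZEB2. They lie on the plus strand at chr12:6963742-6963764 and chr12:6964155-6964176, and their seeds differ by 1 base.
hsa-miR-200c-3p: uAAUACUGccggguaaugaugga
hsa-miR-141-3p: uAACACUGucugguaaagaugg
MicroRNAs themselves are too short for the assay, and only the host transcript was counted.

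Cultured squamous cells were checked by their keratins and junction genes. KRT17, PERP and DSP were found in 72.9% to 100% of cells in every sample. KRT6A and TP63, also followed as squamous markers, were less uniform. KRT6A was found in 90.8% to 98.6% of SCC25 cells but in 2.24% to 17.7% of SCC1 and SCC6 cells. TP63 was found in 18.1% to 30.9% of SCC1 cells, at most 27.4% of SCC6 cells and 33.2% to 58.2% of SCC25 cells. KRT5 and KRT14, the basal keratins, were found in 84.5% to 100% of SCC1 and SCC25 cells but in 0.616% to 4.24% of SCC6 cells, so that SCC6 lacked the basal keratins in most cells. PTPRC, CD3E, ALB and HBB, which squamous cells should not express, were each found in at most 0.104% of cells of a sample. That share served as the background for detection. The immune markers CD68 and CD79A were not in this set and were more frequent. They were found in 30.9% and 3.17% of cells of SCC6 PBS replicate 1, and in 4.13% and 1.58% of SCC6 cetuximab replicate 1. Carry-over between libraries of a transcript abundant in some of them was not measured. All shares of cells in the text, where nothing else is said, are from cells thinned to 15000 UMIs each, which kept 23063 cells and left out 851 shallower ones, and a cell with 1 or more UMIs was called positive.

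The lines differed in VIM before any treatment. In SCC1, VIM stood at 2.03 and 6.59 UMIs per 1000000 of the library (CPM, scaled by TMM factors) in PBS replicates 1 and 2. In SCC6 the PBS replicates had 33.6 and 92.8 CPM. In SCC25 they had 378 and 266 CPM. No sample of 1 line overlapped with a sample of another, and the means were 4.31 ± 3.23, 63.2 ± 41.8 and 322 ± 79.5 CPM (SD, n = 2). By the quasi-likelihood test of edgeR, the log2 difference was 3.87 ± 0.60 (SE; FDR = 0.000666) between SCC6 and SCC1, 6.22 ± 0.67 (FDR = 7.43e-05) between SCC25 and SCC1, and -2.35 ± 0.56 (FDR = 0.00763) between SCC6 and SCC25. Without SCC6 PBS replicate 1, the last of these was -1.79 with an FDR of 0.0566.

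The share of VIM-positive cells had the same order. In SCC1, 1.89% and 2.32% of PBS cells were positive, above the background of 0.104%. In SCC6, 17.4% and 35.5% of PBS cells were positive, and in SCC25 78.3% and 54.4%. Positive cells also held more VIM in SCC25, with a mean of 6.74 and 5.51 UMIs per positive cell against 2.43 and 3.73 in SCC6.

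TWIST2 was a gene of SCC25. Its PBS samples had 1929 and 1671 TWIST2 UMIs, or 24.0 and 16.2 CPM, and the cetuximab samples 1897 and 1505 UMIs. All 4 SCC6 samples had 0 UMIs, and the 4 SCC1 samples had 1, 1, 0 and 0. Against SCC6 PBS, where a count of 0 allows up to 3 UMIs over the group, TWIST2 was at least 1151-fold higher in SCC25 PBS. Against the 2 UMIs of SCC1 PBS the ratio was 1641, with an exact 95% interval for counting error of 454 to 13558. TWIST2-positive cells were 29.4% and 18.6% of SCC25 PBS cells. TWIST2 was 1 of 3 members called in each comparison of SCC25 with another line, with FDR = 1.21e-05 against SCC1 and 9.33e-06 against SCC6.

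TWIST1, its close relative, was found in all lines at low level. SCC1 PBS samples had 2.99 and 2.27 CPM, SCC6 PBS samples 6.68 and 2.91, and SCC25 PBS samples 2.30 and 1.66. SCC6 was above SCC25 by 1.27 ± 0.38 on the log2 scale (FDR = 0.0206), and the difference between SCC6 and SCC1 did not pass the test (0.87 ± 0.37, FDR = 0.0885). The first of these rested on single samples, with an FDR of 0.223 without SCC6 PBS replicate 1 and 0.118 without SCC25 PBS replicate 2, and the second passed without SCC6 PBS replicate 2 (FDR = 0.0101). Unlike TWIST2, TWIST1 was highest in the line with intermediate VIM.

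SNAI2 was the factor with most UMIs in every sample, 2718 to 8115, and was found at like levels in all 3 lines. SCC1 PBS samples had 59.5 and 72.8 CPM, SCC6 PBS samples 68.7 and 29.6 and SCC25 PBS samples 59.3 and 67.0. The groups overlapped, except that SCC6 PBS replicate 2 stood below all other samples. None of the 3 differences between lines passed the test, with log2 differences of -0.43 ± 0.32 for SCC6 and -0.07 ± 0.32 for SCC25 against SCC1, and FDR = 0.318 and 0.887. SNAI2 was positive in 27.3% to 66.5% of cells of each sample, and therefore in most SCC1 cells, where nearly every cell was without VIM. Without SCC6 PBS replicate 1, which leaves the low replicate alone, the log2 difference of SNAI2 was -1.16 against SCC1 (FDR = 0.00661) and -1.09 against SCC25 (FDR = 0.00975).

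SNAI1, the relative of SNAI2, was rare. SCC1 PBS samples had 0.559 and 0.985 CPM of it, those of SCC6 0.931 and 0.751 and those of SCC25 0.287 and 0.330. Both SCC25 samples were below the samples of the other lines, but the differences did not pass the test, with an FDR of 0.0506 for SCC6 against SCC25 (1.44 ± 0.53) and 0.0689 for SCC25 against SCC1 (-1.32 ± 0.53). Without either SCC6 cetuximab replicate, which enter through the shared spread, both passed (FDR = 0.0169 to 0.0258). SNAI1 was positive in 0.320% to 1.28% of cells.

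ZEB1 followed the order of VIM but at very low counts. The SCC1 PBS samples had 0 and 5 ZEB1 UMIs, the SCC6 PBS samples 13 and 11 and the SCC25 PBS samples 36 and 20. The SCC25 level of 0.321 ± 0.180 CPM (SD, n = 2) was above that of SCC1 by 3.39 ± 0.87 on the log2 scale (FDR = 0.0124), and SCC6 did not differ from either line past the threshold (FDR = 0.0879 against SCC1 and 0.205 against SCC25). The call was lost without SCC1 PBS replicate 1 (FDR = 0.0562) or without SCC25 PBS replicate 1 (FDR = 0.0644), and SCC6 passed against SCC1 without SCC1 PBS replicate 2, which held all ZEB1 UMIs of SCC1 (FDR = 0.0314). ZEB2 had 14 to 54 UMIs in each PBS sample and no difference between lines passed the test (FDR = 0.320 to 0.715).

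PRRX1 was close to absent. It had 0 UMIs in all SCC1 samples, 1 in the 4 SCC6 samples together and 7, 0, 3 and 4 in the SCC25 samples. In SCC25 PBS replicate 1, the positive cells were 1 of 2188, or 0.0457% (exact 95% interval 0.00116 to 0.254), which is within the background. Of the 7 members tested, 1 was called between SCC6 and SCC1 (VIM), 3 between SCC25 and SCC1 (VIM, TWIST2 and ZEB1) and 3 between SCC6 and SCC25 (VIM, TWIST2 and TWIST1). Among all genes, 40.2%, 40.8% and 40.9% were called in these comparisons, against which the members' counts are to be read.

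**Figure D1:**
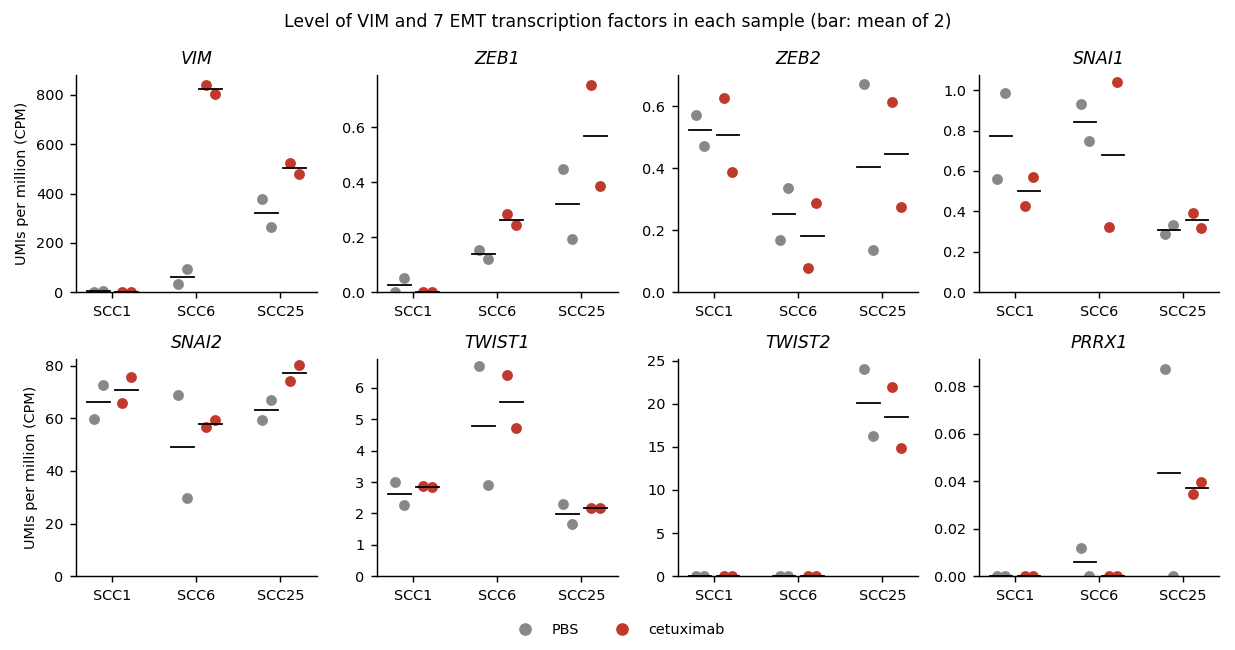
Level of each gene in CPM (y axis, scale of its own in each panel) in the 12 samples, by line (x axis) and treatment (colour), with a bar at the mean of 2 replicates. VIM stood at 805 and 841 CPM in cetuximab-treated SCC6 against 33.6 and 92.8 in PBS, TWIST2 between 14.9 and 24.0 CPM in SCC25 and at most 0.0140 CPM elsewhere, and SNAI2 between 29.6 and 80.1 CPM in every sample.

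Under cetuximab, VIM rose in SCC6. The level went from 33.6 and 92.8 CPM in PBS to 841 and 805 CPM, so that the groups were far apart and SCC6 came to exceed SCC25. The means were 63.2 ± 41.8 and 823 ± 25.2 CPM (SD, n = 2), a log2 fold change of 3.70 ± 0.60 (FDR = 0.0122). VIM was the only 1 of 7 members called in SCC6, where 3.81% of all genes were called. With the replicate number as a block, which paired the samples (VIM 3.88 ± 0.36, FDR = 0.000775), 20.1% of all genes were called and again no other member. The fold change was 3.14 without SCC6 PBS replicate 1 (FDR = 0.116) and 3.67 without SCC6 cetuximab replicate 1 (FDR = 0.0664).

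The rise in SCC6 came with more positive cells and with more VIM in each of them. Positive cells were 17.4% (95% interval 16 to 18.9) and 35.5% (33.6 to 37.4) in PBS and 92.9% (91.9 to 93.9) and 91.8% (90.4 to 93.1) under cetuximab. The mean per positive cell went from 2.43 and 3.73 UMIs to 14.2 and 13.9. Cells with 10 or more VIM UMIs were 0.452% and 2.38% of PBS cells and 44.9% and 42.6% of treated cells, and the median treated cell held 8 and 7 VIM UMIs against 0 in PBS. The intervals cover counting error only.

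**Figure D2:**
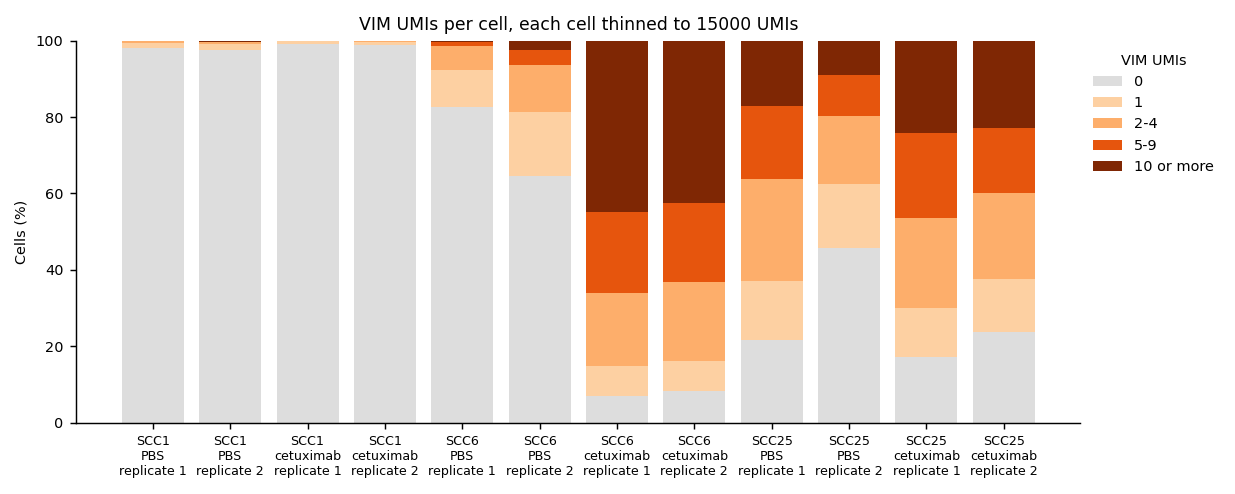
Share of cells (y axis, percent) in classes of VIM UMIs per cell (colour) in each of the 12 samples (x axis), after each cell was thinned to 15000 UMIs. In SCC6, cells with 10 or more VIM UMIs made up 0.452% and 2.38% of the PBS samples and 44.9% and 42.6% of the cetuximab samples.

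In SCC25, VIM was already high and both treated samples lay above both PBS samples, at 524 and 479 CPM against 378 and 266. The log2 fold change of 0.64 ± 0.54 did not pass the test (FDR = 1), nor did it with the block (FDR = 0.372). Positive cells were 82.8% and 76.4% under cetuximab against 78.3% and 54.4% in PBS, which overlapped. No member was called in SCC25 by edgeR, and none of the 7 had an unadjusted p under 0.05, where 0% of all genes were called and 1041 genes had an unadjusted p under 0.05. DESeq2 called 101 genes there and no member. With the block, 0.978% of all genes were called in SCC25 and no member.

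In SCC1, VIM moved the other way. The level was 2.03 and 6.59 CPM in PBS and 0.628 and 1.11 CPM under cetuximab, with no overlap. The log2 fold change was -2.30 ± 0.59 with an FDR of 0.251, so that no member was called where 0.0168% of all genes were, and VIM alone had an unadjusted p under 0.05. With the replicate block, VIM fell by 2.21 ± 0.39 on the log2 scale (FDR = 0.0233) and was the 1 member called, where 4.45% of all genes were. DESeq2 also called it (adjusted p = 0.00737). Positive cells were 1.89% and 2.32% in PBS and 0.959% and 1.11% under cetuximab.

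A few cells carried much of the VIM of SCC1. In SCC1 PBS replicate 2, 5 of 1666 cells held 63 to 97 VIM UMIs each and together 398 of the 629 UMIs of the sample, or 63.3%. These cells held 4 to 36 UMIs of SPARC. On average SPARC stood at 165 CPM in SCC1 PBS, 0.541 in SCC25 PBS and 0.0783 in SCC6 PBS. The cells also held 43 to 117 UMIs of KRT14, a keratin found in both SCC1 and SCC25. Of 5 genes found in SCC25 that were at or below 1.29 CPM in SCC1 PBS, they had no UMI of TWIST2, NEFL, KLK5 or NREP, and 1 of them had 1 UMI of MMP2. In all, 4 of the 5 cells were deeper than the sample median of 52118.5 UMIs, at 68689 to 142405 UMIs, and 1 had 36954. No cell of the other 3 SCC1 samples reached 30 VIM UMIs, but 1 cell of cetuximab replicate 2 had 29, or 29.9% of the 97 UMIs of that sample. The highest cell had 16 in PBS replicate 1 and 5 in cetuximab replicate 1. Without the 5 cells, PBS replicate 2 stood at 2.42 CPM, still above both treated samples. One of the 5 cells held 2 of the 5 ZEB1 UMIs of PBS replicate 2, and 3 of these 5 UMIs were in cells with VIM. The 5 cells were singled out after their values were seen.

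Whether the VIM change differed between lines was tested as the interaction of line and treatment. The interaction did not pass in the fit without the block (FDR = 0.222), where 0% of all genes were called and 1318 had an unadjusted p under 0.05. It passed with the block (FDR = 0.0126), where 1.29% of all genes were called and VIM was the 1 member among them. The 3 contrasts share no sample, and each has its own PBS group.

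The antisense neighbour VIM-AS1, which is no member and was looked at after its values were seen, rose with VIM in SCC6. It had 0.656 and 1.84 CPM in SCC6 PBS and 7.25 and 5.82 CPM in SCC6 cetuximab samples, a log2 fold change of 2.38 ± 0.49 (FDR = 0.0284). In SCC25 its PBS samples, at 2.96 and 1.97 CPM, overlapped with the treated samples at 2.91 and 2.72 CPM. SCC1 had 3 and 14 UMIs of it in PBS and 1 and 1 under cetuximab. How the counting used strand is not given in the sources used here, so that reads of VIM and VIM-AS1 cannot be told apart with certainty.

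None of the transcription factors changed with cetuximab past the threshold in any line, in the fit with or without the block. SNAI2 had log2 fold changes of 0.10 ± 0.32, 0.24 ± 0.32 and 0.29 ± 0.32 in the lines SCC1, SCC6 and SCC25. In SCC6 its treated samples, at 56.6 and 59.3 CPM, lay between the PBS samples at 68.7 and 29.6. In SCC25 they lay above, at 74.2 and 80.1 CPM against 59.3 and 67.0.

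TWIST1 had log2 fold changes of 0.12 ± 0.37, 0.21 ± 0.37 and 0.13 ± 0.37 in SCC1, SCC6 and SCC25. TWIST2 in SCC25 stood at 24.0 and 16.2 CPM in PBS and 22.0 and 14.9 CPM under cetuximab, a log2 fold change of -0.13 ± 0.30, and in SCC6 it stayed at 0 UMIs while VIM rose. The replicates of SCC25 differed more in TWIST2 than the treatments did.

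The factors of lowest count had the widest errors. ZEB1 had 13 and 11 UMIs in SCC6 PBS and 22 and 22 in the treated samples (0.93 ± 0.71), and 36 and 20 against 65 and 39 in SCC25 (0.83 ± 0.65). In SCC1 its treated samples had 0 UMIs. SNAI1 had log2 fold changes of -0.63 ± 0.52, -0.30 ± 0.50 and 0.20 ± 0.54 in SCC1, SCC6 and SCC25, and ZEB2 of -0.04 ± 0.75, -0.45 ± 0.82 and 0.15 ± 0.76. At 0 to 94 UMIs per sample, changes within these errors were not detectable.

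Across the lines, the share of positive cells was tested by permuting treatment within lines (exact, two-sided), where the smallest possible p is 0.00926. SNAI2 was higher under cetuximab in 6 of 6 pairs, by 9.31 percentage points on average (exact p = 0.0185). It went in SCC1 from 58.5% and 62.9% to 59.1% and 66.5%, from 44.8% and 27.3% to 53.5% and 55.0% in SCC6 and from 54.5% and 56.1% to 61.6% and 64.2% in SCC25. VIM was higher in 4 of 6 pairs, by 26.0 points (exact p = 0.111), TWIST1 in 5 of 6, by 1.21 points (exact p = 0.148). The other 5 genes had exact p-values of 0.333 to 0.694. With 8 genes tested, no member passed 0.05 after Benjamini-Hochberg adjustment, and within 1 line 2 samples against 2 cannot reach 0.05.

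**Figure D3:**
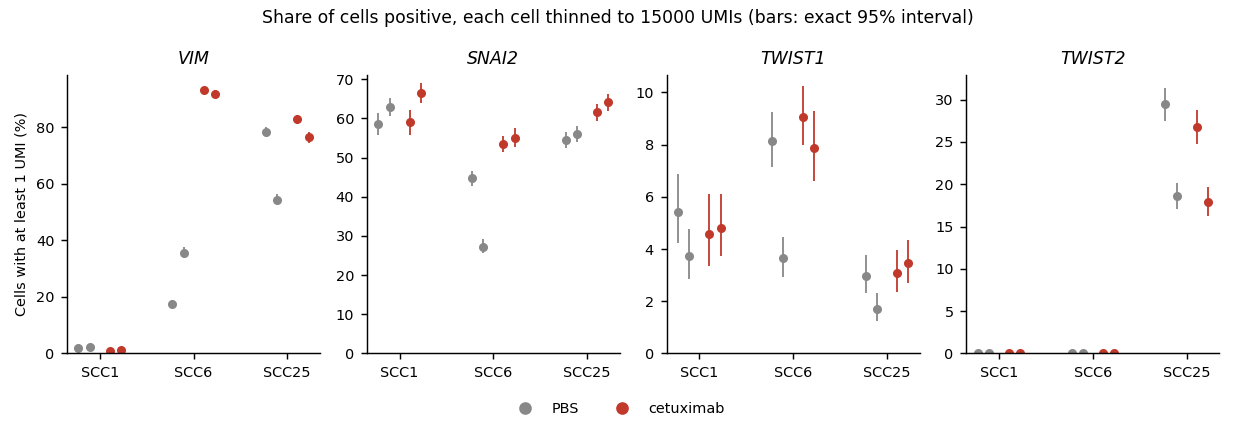
Share of cells with at least 1 UMI (y axis, percent, scale of its own in each panel) of VIM, SNAI2, TWIST1 and TWIST2 in the 12 samples by line (x axis) and treatment (colour), thinned to 15000 UMIs per cell, with exact 95% intervals for counting error. SNAI2 was found in 27.3% to 66.5% of cells in every sample, while VIM ranged from 0.959% to 92.9%.

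Which factors share cells with VIM was asked within each sample of SCC6 and SCC25, where VIM-positive and VIM-negative cells were both numerous. SNAI2 was the factor most often found beside VIM. In SCC6 it was found in 49.2% of VIM-positive and 43.8% of VIM-negative cells of PBS replicate 1. In PBS replicate 2 the shares were 30.1% and 25.8%. Under cetuximab they were 54.5% and 39.3% in replicate 1, and 55.5% and 50% in replicate 2. SNAI2 was thus more frequent among VIM-positive cells in 4 of 4 SCC6 samples, by 7.6 ± 5.10 points (mean and SD over samples). The ratio of cells with both to the product of the separate shares was 1.01 to 1.10, where 1 is what the shares alone give.

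When UMIs were summed per class and sample, SNAI2 was higher in VIM-positive SCC6 cells by 0.30 ± 0.09 on the log2 scale (edgeR with sample as a block, FDR = 0.0485). It was the 1 factor called of the 4 that passed the filter (SNAI2, TWIST1, TWIST2 and ZEB1, with TWIST2 at 0 UMIs in SCC6), where 3.05% of 14661 genes were called. Its levels were 65.7 against 58.1 CPM, 33.5 against 22.1, 59.9 against 45.9 and 61.4 against 57.2 CPM in the 4 samples, here as a share of each class total without TMM factors. The call sat at the threshold. It was lost when any of SCC6 PBS replicate 2 (FDR = 0.360), SCC6 cetuximab replicate 1 (0.176), SCC6 cetuximab replicate 2 (0.0730) or SCC25 PBS replicate 2 (0.0516) was left out.

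In SCC25, SNAI2 was found in 56.2% against 48.3% and 55.9% against 56.2% of VIM-positive and VIM-negative PBS cells, and in 62.4% against 57.7% and 64.2% against 64.1% of treated cells. The summed difference was 0.09 ± 0.07 (FDR = 0.472). Within VIM-positive cells the share rose at the top of the VIM range: cells with 10 or more VIM UMIs had SNAI2 in 64.8% and 64.4% of PBS cells and 66.5% and 67.2% of treated cells, the highest class in 4 of 4 samples. No test was made of the classes, which come from the same cells.

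TWIST2 and VIM, both highest in SCC25 among untreated lines, were found together no more often than their shares gave in the treated samples. TWIST2 was found in 29.9% against 27.8% and 20.4% against 16.5% of VIM-positive and VIM-negative PBS cells, and in 26.7% against 26.9% and 17.8% against 18.3% of treated cells. The summed difference was 0.11 ± 0.09 (FDR = 0.483). Of TWIST2-positive cells, 59.6% to 82.7% had VIM, close to the shares of VIM-positive cells in the same samples. Without thinning, TWIST2 was more frequent among VIM-positive cells by 11.2 points on average against 1.33 points with thinning, and VIM-positive cells were the deeper ones, with medians of 33289.5 to 51454 UMIs against 30471.5 to 39738 in VIM-negative cells of SCC25.

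TWIST1 was found in 6.94%, 4.16%, 9.13% and 8.11% of VIM-positive and 8.40%, 3.37%, 8.20% and 5.22% of VIM-negative cells in the 4 SCC6 samples, which went both ways (summed difference -0.03 ± 0.17, FDR = 0.977). In SCC25 its summed difference was -0.06 ± 0.22 (FDR = 0.905). ZEB1 was found in 2 to 19 VIM-positive and 0 to 4 VIM-negative cells per sample, and its differences of 1.01 ± 0.90 in SCC6 and 0.70 ± 0.62 in SCC25 did not pass the test (FDR = 0.691 and 0.499). No factor was called in SCC25, where 16.9% of all genes were, 4254 genes had an unadjusted p under 0.05 and none of the 4 factors did. ZEB2, SNAI1 and PRRX1 had too few UMIs for the test.

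Cells with VIM but no factor were common. Of all cells, 26.3% to 68.8% per sample had none of the 7 factors detected. Among VIM-positive cells the share without a factor was 46.4% and 65.2% in SCC6 PBS, 41.4% and 40.2% in SCC6 cetuximab, and 26.1% to 34.0% in SCC25. A cell without a factor is one in which none was detected at this depth. Cells with 2 or more factors were 1.19% to 5.56% in SCC1 and SCC6 and 11.5% to 19.2% in SCC25, the line with TWIST2. SNAI2 and TWIST2 were found in the same SCC25 cells at 0.963 to 1.02 times the product of their shares.

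**Figure D4:**
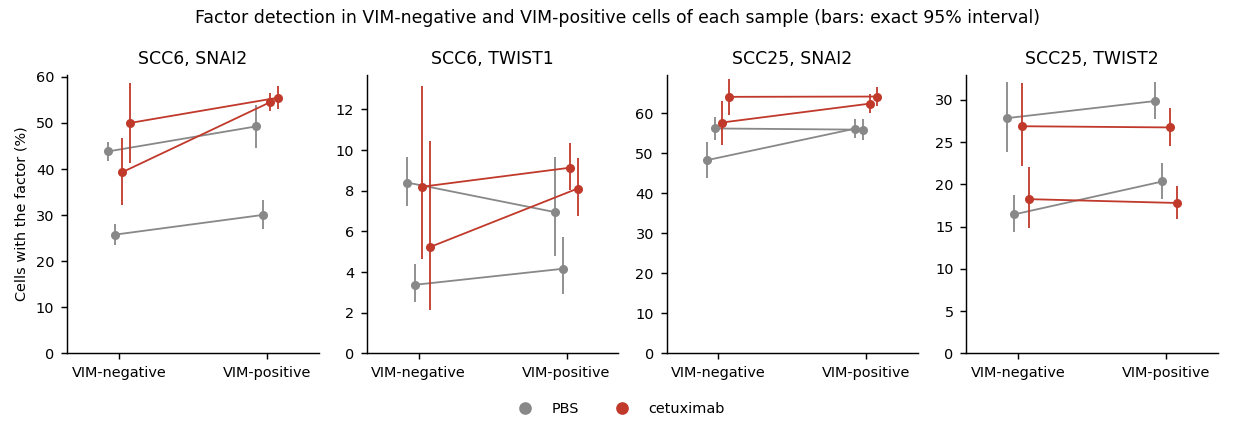
Share of cells with SNAI2, TWIST1 or TWIST2 (y axis, percent) among VIM-negative and VIM-positive cells (x axis) of each sample of SCC6 and SCC25, joined by a line and coloured by treatment, with exact 95% intervals for counting error. SNAI2 was higher among VIM-positive cells in 4 of 4 SCC6 samples, and TWIST2 in SCC25 differed by 3.89 points at most.

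The wider EMT programme was followed in 6 gene lists. Of 24 mesenchymal effectors, the matrix, filament and adhesion genes of mesenchymal cells, 10 rose and 0 fell in SCC6. There 3.81% of all genes were called, and the median log2 fold change of the list was 2.36 against 0 over all genes. COL5A1 and COL1A1, fibrillar collagens, rose by 4.0 ± 0.58 (FDR = 0.00851) and 3.45 ± 0.41 (FDR = 0.00631). FBN1, a microfibril protein, rose by 3.59 ± 0.61 (FDR = 0.0149), and TNC (tenascin C) by 3.10 ± 0.56 (FDR = 0.0186). In SCC1 and SCC25 none of the 24 was called, with medians of 0.83 and 1.11, where 0.0168% and 0% of all genes were called. With the block, 9 rose and 2 fell in SCC1, where 4.45% of all genes were called. In the same fit 18 rose and 1 fell in SCC6, where 20.1% were called, and 8 rose in SCC25, where 0.978% were.

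Several of these genes are also markers of fibroblasts. The 9 fibroblast markers summed to 1.22 and 3.48 CPM in SCC6 PBS and to 23.3 to 27.4 CPM in SCC6 cetuximab samples, and 3 of the 9 were each found in over 1% of cells of both treated samples. COL1A1 was found in 1.24% and 3.57% of SCC6 PBS cells and 24.7% and 21.5% of treated cells, COL3A1 in 0% and 0.246% against 2.78% and 1.95%, and PDGFRB in 0.0377% and 0.123% against 2.47% and 2.44%. The other 6 were found in at most 0.671% of cells of an SCC6 sample. VIM was found in 92.9% and 91.8% of treated SCC6 cells. PDGFRA was at 0 UMIs in SCC6 PBS and THY1 in SCC6 cetuximab samples. The part of other cell types in the result was not tested.

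Epithelial genes were counted in the same way. None of 16 epithelial junction and surface genes was called in SCC6 (median -0.50), where 3.81% of all genes were without the block. AP1M2 had -0.28 ± 0.36. With the block 8 fell and 2 rose, where 20.1% of all genes were called. Of 12 measured factors that keep the epithelial state, 1 fell in SCC6, ELF3, by 2.26 ± 0.53 on the log2 scale (FDR = 0.0463). With the block, 4 fell (ELF3, EHF, GRHL1 and ESRP2) and 1 rose (TP63) in SCC6. In SCC25 ELF3 fell with the block (-1.12 ± 0.19, FDR = 0.0413), where 0.978% of all genes were called. MIR200CHG, the host of the microRNAs printed above, had -0.15 ± 0.36 (FDR = 0.871).

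Of 15 other EMT-associated transcription factors, 1 rose and 2 fell in SCC6. Over all genes 3.81% were called there without the block, and 0.0168% and 0% in SCC1 and SCC25. SOX4, a factor linked to EMT downstream of TGF-beta, rose by 1.66 ± 0.37 (FDR = 0.0362). FOSL1, an AP-1 subunit that follows MAPK activity, had a log2 fold change of -2.97 ± 0.70 (FDR = 0.0456), and FOXQ1 of -2.06 ± 0.37 (FDR = 0.0180). With the block, 2 rose and 1 fell in SCC1, 4 rose and 3 fell in SCC6 and 3 rose and 1 fell in SCC25. Over all genes, 4.45% were called with the block in SCC1, 20.1% in SCC6 and 0.978% in SCC25. SOX4 was called higher in all 3 lines in that fit, by 1.56 ± 0.21 (FDR = 0.0108), 1.59 ± 0.21 (FDR = 0.00280) and 1.21 ± 0.20 (FDR = 0.0410). None of 15 co-repressors and turnover genes of the SNAI and ZEB proteins was called in any line (with the block 1 fell in SCC1, and 1 rose and 2 fell in SCC6), HDAC2 and KDM1A having 0.06 ± 0.39 and -0.28 ± 0.26 in SCC6. Of 10 vimentin relatives and linkers 6 were tested and none was called, PLEC (plectin) having 0.08 ± 0.36 in SCC6 and NES (nestin) 1.26 ± 0.39 (FDR = 0.107). With the block, NES was called higher in SCC6 (1.28 ± 0.23, FDR = 0.00799) and lower in SCC1 (-1.43 ± 0.28, FDR = 0.0302).

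Between VIM-positive and VIM-negative cells of the same samples, mesenchymal effectors were called in both lines. Of 22 tested, 15 were higher in VIM-positive SCC6 cells and none lower, where 3.05% of all genes were called. Their median was 0.76 against 0.0043 over all genes. COL1A1 was higher by 1.19 ± 0.17 (FDR = 7.90e-05), TNC by 1.14 ± 0.31 (FDR = 0.0363), LOX by 1.01 ± 0.16 (FDR = 0.000176) and COL5A1 by 0.99 ± 0.09 (FDR = 1.38e-08). In SCC25, 18 were higher and 1 lower, with a median of 0.68 against -9.7e-13 over all genes, where 16.9% of all genes were called. Among those of at least 5 CPM, FN1 (1.37 ± 0.11, FDR = 6.67e-10) and TAGLN (1.21 ± 0.07, FDR = 5.40e-13) had the largest differences, and S100A4 was lower (-0.67 ± 0.06, FDR = 1.09e-08). These comparisons are within samples, so that the mean shift between treatments is taken out by the block. PBS and treated samples of a line shared a class difference in the fit, and whether it depended on treatment was not tested.

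Epithelial genes were also compared between the classes. In SCC25, where 16.9% of all genes were called, 10 of 16 junction and surface genes were lower and 1 higher, CLDN1 with a difference of -0.55 ± 0.07 (FDR = 4.64e-06). In SCC6, where 3.05% were called, 2 were lower and 1 higher. Of 11 factors that keep the epithelial state, 5 were lower in SCC25 and 1 in SCC6, and ELF3 was lower in both (-0.82 ± 0.07, FDR = 9.45e-10, and -0.41 ± 0.07, FDR = 0.000778). MIR200CHG, named here after its values were seen, had a log2 difference of -0.94 ± 0.21 in SCC25 (FDR = 0.00214). It stood at 1.63 against 3.66, 2.30 against 3.21, 1.64 against 2.42 and 2.02 against 5.94 CPM, lower in 4 of 4 samples. ZEB1 and ZEB2, the targets of its microRNAs, were too rare for a difference to be detected in the same cells. Whether these differences between VIM classes were unlike in SCC6 and SCC25 was not tested.

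Of 15 other EMT-associated transcription factors, some were called between the classes. In SCC6, where 3.05% of all genes were called, TCF4 (0.63 ± 0.14, FDR = 0.00936) and SOX4 (0.47 ± 0.07, FDR = 0.000133) were higher in VIM-positive cells. In SCC25, 4 of the 15 were higher, FOSL1 (0.66 ± 0.10, FDR = 1.37e-05), TCF3, FOXC2 and HMGA2, and 2 were lower, FOXQ1 and, named after its values were seen, SNAI3. Over all genes 16.9% were called in SCC25, against which these counts are to be read. Of the co-repressors, KDM1A alone was called, lower in VIM-positive cells of both lines (-0.21 ± 0.06, FDR = 0.0374, and -0.32 ± 0.06, FDR = 0.000220). NEFL, another intermediate filament gene, was higher in VIM-positive SCC25 cells (0.40 ± 0.07, FDR = 0.000213).

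The genes whose level was most like that of VIM over the 12 samples, by Pearson r of log2(CPM + 1) among 7558 genes of at least 10 CPM on average, were NREP (r = 0.97), MMP2 (0.97), KLK5 (0.96), ZNF703 (0.96) and GCNT1 (0.96), all at or below 2.21 CPM on average in SCC1. The 12 samples include the difference between lines. On deviations from the line means, YTHDF1 (0.94), UACA (0.93), TMEM98 (0.93) and EIF4G2 (0.91) were among the first 5. SNAI2, the 1 factor with enough counts to enter, had r = -0.13 over the samples and 0.17 on the deviations. These correlations rank genes and carry no test.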

How the data were processed

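Per the labels, libraries were made with 10x Chromium. The submitters' processing notes name Cell Ranger and GRCh38, and the authors deposited raw UMI counts per gene and cell, 1 table per line with cells marked by sample. The aligner version and the use of strand are not given in the sources used here. Totals were 57057402 to 112170073 UMIs per sample, so that the spread between replicates rather than counting limits all but rare transcripts. Counts of the 24 duplicated symbols were added. All deposited cells entered. No doublet caller was run, and cells were not clustered because each table holds 1 line. Replicates shared 3 to 10 cell barcodes. The design text speaks of duplicates and the methods of duplicate sequencing, and p-values may therefore measure the spread between libraries only. Same-numbered samples of a line deviated together (r = 0.377, 0.349 and 0.598), and the number was taken to pair them. With 2 samples per group, crossed pairs have the same r with the sign reversed, so that only the sign carries information. The labels number the replicates but state no pairing, and all results with the block rest on this choice.

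Counts were summed per sample and tested with edgeR 4.0.16 (quasi-likelihood F-test, TMM factors, filterByExpr, a mean for each of 6 groups, in R 4.3.3), with Benjamini-Hochberg adjusted p (FDR) over all genes and a threshold of 0.05. The study tested single cells; cells are not replicates. For VIM classes, thinned counts were summed per sample and class and fitted with sample as a block, with VIM removed from the table. Classes under 20 cells were left out, and SCC1 was not tested. Shares were compared by exact permutation within lines. Intervals are exact (Clopper-Pearson, 95%, scipy 1.17.1). The edgeR step was tested on simulated data. Alternatives were the replicate block, DESeq2 1.42.0 and its size factors, no filter, cells left out, other thinning and each sample left out. From each list, up to 4 genes per direction past the threshold with at least 5 CPM were named, otherwise the 2 of highest level. The members, lists and rules were chosen with earlier results of these data known. Some genes that this rule names are not reported here.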

Additional observations from a re-analysis of the deposited data

Results flagged for a closer look

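The mean VIM level moved in opposite directions in the lines, and this was picked out for a closer look. Both cetuximab samples lay below both PBS samples in SCC1, while both lay above them in SCC6 and in SCC25. The share of all genes with samples so separated is not given here. In edgeR the change passed the test in SCC6 alone without the replicate block. With the block it also passed in SCC1, but not in SCC25. The log2 change in SCC6 exceeded that in SCC1 by 6.01, and the change in SCC25 exceeded it by 2.94; these pairwise differences were not tested on their own. The interaction over the 3 lines had an FDR of 0.0126 with the replicate block and 0.222 without it in edgeR. With 2 samples per group, no group was large enough to be searched for outlying samples.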

How the results depend on the processing

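Each of 65 results was recomputed under its alternatives, 1025 values in all. Of these, 932 stayed the same, 38 changed sign, 29 were stronger, 23 were weaker and 3 moved. A tested value stayed the same if it kept its direction and side of the threshold. It was stronger if it newly passed and weaker if it no longer passed. A count of members called stayed the same if equal or within a fixed ratio, and was otherwise stronger if larger and weaker if smaller. Values without a test stayed the same within 1 SD and otherwise moved. The alternatives for the interaction were chosen after seeing the data. VIM in SCC1 brought the members called from 0 to 1 with the replicate block, without the filter and in DESeq2. The interaction went from 0 to 1 with either block and without the filter. The block within each line changed no other call of a member, and the untreated lines were not compared in that fit. In SCC6 the count of 1 ranged from 0 to 1 on leaving out single samples. Between untreated SCC6 and SCC1 it was 2 with a block shared by the lines and without the filter, and 1 to 2 on leaving out samples. The 1 factor called between VIM classes in SCC6 became 0 in DESeq2, without the filter and without the 5% of cells with most UMIs, and 0 to 1 on leaving out samples. The causes were not tested beyond the construction of each alternative.

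Signs changed for these values, none of which passed the test in the form reported. In VIM-positive against VIM-negative cells, TWIST1 had log2 differences of 0.054 in SCC6 and 0.13 in SCC25 on unthinned counts, and 0.070 and 0.087 with 3 or more VIM UMIs as positive. With 2 or more UMIs as positive, the change of the ZEB1 share was -0.00666 and of the ZEB2 share -0.00504 points, and without thinning that of TWIST2 was 1.36 points. On leaving out single samples, the cetuximab log2 fold change ranged in SCC1 from -0.43 to 0.27 for ZEB2, -0.051 to 0.25 for SNAI2 and -0.068 to 0.32 for TWIST1. In SCC6 it ranged from -1.70 to 0.18 for ZEB2, -1.39 to 0.31 for SNAI1, -0.25 to 0.96 for SNAI2 and -0.27 to 0.93 for TWIST1. In SCC25 it ranged from -0.60 to 1.69 for ZEB2, -0.085 to 0.38 for TWIST1 and -0.42 to 0.18 for TWIST2. Between untreated lines, SCC6 against SCC1 ranged from -0.23 to 0.59 for SNAI1 and -1.16 to 0.052 for SNAI2, SCC25 against SCC1 from -1.92 to 0.36 for ZEB2 and -0.22 to 0.083 for SNAI2, and SCC6 against SCC25 from -1.40 to 0.89 for ZEB2 and -1.09 to 0.12 for SNAI2. Between VIM classes the range was -0.19 to 1.83 for ZEB1 and -0.16 to 0.21 for TWIST1 in SCC6, and -0.13 to 0.045 for TWIST1 in SCC25. Share changes ranged from -0.0166 to 0.197 points for ZEB1, -0.0148 to 0.202 for ZEB2 and -2.37 to 1.24 for TWIST2.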
